A study of Mus musculus with 32 samples.

Results

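The genes described here are the proteases that cut the extracellular matrix, the inhibitors that hold them in check, and the plasminogen activators and their receptor. They were taken by symbol: every gene named Mmp, Timp, Adam, Adamts or Adamtsl with a number, plus Reck, Plat, Plau and Plaur. This gave 65 of the 20560 genes in the deposited table, namely 19 matrix metalloproteinases (MMPs), 16 ADAMs, 17 ADAMTS genes, 5 ADAMTS-like genes, 4 TIMPs, Reck, and 3 genes of plasminogen activation. Their RNA was followed in 3T3-L1, a line of mouse preadipocytes that fill with fat under hormone treatment. All cells carried a short hairpin RNA: a scramble hairpin in the controls, and shRNA 1 or shRNA 2 against Zbtb9, which encodes a zinc finger and BTB domain protein, in the knockdown cells. All were induced at day 0, when they had been confluent for some days, with dexamethasone, 3-isobutyl-1-methylxanthine and insulin. They were given insulin alone from day 3, and plain medium from day 7. RNA was sequenced at days 0, 3, 7 and 11, with 4 control libraries, 2 shRNA 1 libraries and 2 shRNA 2 libraries at each day, 32 in all. The labels name the replicates of a group as biological replicates. Whether they came from separate infections, and whether each hairpin line was a clone or a pool, is not given in the sources used here, so p-values measure the spread between these cultures.

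MMPs, ADAMs and ADAMTS enzymes are zinc peptidases. Most MMPs and ADAMTS enzymes are secreted as inactive precursors and cut collagens, gelatin and proteoglycans, while most ADAMs sit in the cell membrane and release the outer parts of other membrane proteins. TIMPs bind the active site of these enzymes, with TIMP3 the broadest in reach and TIMP2 also needed with the membrane enzyme MMP14 to activate MMP2. A preadipocyte that becomes an adipocyte leaves a collagen-rich fibroblast matrix and builds a basement membrane, and both steps involve these enzymes.

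Libraries held 22280363 to 31073726 reads. At days 0, 3 and 7 the totals of control and knockdown libraries overlapped, while at day 11 the controls (26486057 to 31073726) were all deeper than the knockdown libraries (22839508 to 25511855). Zbtb9 itself was scarce: at day 0 the control libraries held 13.5 to 14.9 normalized reads and the knockdown libraries 4.62 to 10.6, and at day 7 they held 12.7 to 22.3 and 4.87 to 9.28. At day 3 (6.35 to 12.6 against 0 to 8.99) and day 11 (12.1 to 19.96 against 2.13 to 19.3) the ranges overlapped, so at those days the target gene does not separate every library by its label. The knockdown libraries were also further along in fat cell genes. Of 10 adipocyte markers, 1, 10, 10 and 9 were called higher in knockdown cells at days 0, 3, 7 and 11. Their summed normalized reads were 52208 to 56824 in control and 145088 to 216120 in knockdown libraries at day 7, and no marker was at 0 in a group from day 3 on. The summed reads of 6 preadipocyte and fibroblast markers were 254727 to 279393 in control and 200089 to 231638 in knockdown libraries at day 7, with 5 of the 6 called lower. These sums were also apart at day 0 (362306 to 377966 against 297867 to 341556), while they overlapped at day 3 (141042 to 158678 against 135485 to 177112) and day 11 (302321 to 347366 against 231455 to 320646). Of 6 listed macrophage markers, 5 were in the deposited table. They summed to 54.1 to 95.2 in control and 95.4 to 153 in knockdown libraries at day 7. At day 11 they summed to 189 to 289 and 272 to 640, with Ptprc and Itgam at or near 0. At day 7 Cd68 carried most of the higher sum, with a mean of 44.9 in control and 101 in knockdown libraries. Csf1r was then at 14.13 and 17.85, and Aif1 at 8.32 and 5.67. At day 11 the Cd68 means were 191 and 395. The 3 endothelial markers summed to 12.8 to 26.4 in control and 24.1 to 46.7 in knockdown libraries at day 7. These markers differ between the same libraries as the gene lists below, and their part in the results was not tested. In bulk RNA, fewer cells of a type and less RNA per cell cannot be told apart.

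The values are given on separate scales. Normalized reads are the reads of a gene rebuilt from the deposited values and divided by the library's size factor. Log2 differences are on the scale of the deposited log2 values, which pull scarce genes toward their mean, so they understate the change of scarce genes. A gene was tested where 2 to the power of its deposited value reached 10 in 4 libraries of a fit, and called where limma's adjusted p, taken over all genes tested, was under 0.05. Of the 65 genes, 47 were tested on at least 1 day and 44 on all 4 days. The other 18 stayed low, from Mmp8 with at most 2.27 normalized reads in any library to Mmp1a with at most 45.1.

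Per kilobase of exon, a few genes led the list. In the control cells at day 0, Mmp2, a gelatinase, had 12731 normalized reads per kilobase, Timp2 9257, and Mmp14, the membrane enzyme that activates MMP2, 5160. Timp1 followed with 2210 and Adamts1, a protease of aggrecan and versican, with 1989. Mmp2 kept the first rank at days 3, 7 and 11. Adamts1 moved from the fifth rank at day 0 to the second at day 3, with 9845 normalized reads per kilobase, and Mmp9, the other gelatinase, moved from rank 8 to rank 30. In normalized reads, not divided by length, the day 0 controls ran from 41622 to 43770.1 for Mmp2, 35184 to 37266 for Timp2, 29653 to 31590.4 for Mmp14, 1911 to 2024 for Timp1 and 9967 to 11462 for Adamts1.

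To place the knockdown, the course of differentiation in the 16 control libraries was examined first. Of the 47 genes tested, 17 were higher and 23 lower at day 3 than at day 0, where 76.6% of all genes were called (38.3% higher and 38.2% lower). At day 7, 16 were higher and 21 lower (69.1% of all genes called, 33.3% higher and 35.8% lower). At day 11, 15 were higher and 18 lower (64.6% of all genes called, 33% higher and 31.6% lower). The 47 had median log2 differences of -0.19, -0.03 and -0.04 at the 3 days in turn, against 0.00, -0.01 and 0.01 over all genes tested. When libraries were rescaled to equal read totals, the median over all genes at day 3 moved by -0.13, from 0.00 to -0.12, so day 3 differences of that size depend on the scaling.

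Mmp9, both plasminogen activators and Timp3 were among the genes that fell most at day 3. Mmp9 fell from 4861, 5146, 4978 and 4753 normalized reads in the 4 control libraries at day 0 to 197, 216, 176 and 182 at day 3, which was 3.90% of the day 0 mean (log2 difference -4.42, SE 0.064, adjusted p = 1.69e-31). It came back in part, to 1497, 1440.2, 1435 and 1450.3 at day 7, and no library of a later day reached the day 0 range. Plat, the tissue plasminogen activator, fell from 2743–2916 at day 0 to 289–339 at day 3 (log2 difference -3.04, SE 0.053, adjusted p = 2.88e-32) and stayed lower at days 7 and 11 (log2 difference -1.74 and -1.11). Plau, the urokinase, fell from 193–239.8 to 5.26–17.98 (log2 difference -2.85, SE 0.14, adjusted p = 3.98e-19).

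Several of these falls were transient. Timp3, the inhibitor that is held in the matrix, went from 3161–3301 normalized reads at day 0 to 406–469 at day 3 (log2 difference -2.77, SE 0.081, adjusted p = 1.55e-16). At day 11 it was at 3373 to 4499 (log2 difference 0.24, adjusted p = 0.0136, against 0.167 when all 32 libraries were fitted together). In the annotation, 21.3% of its exon bases overlap Syn3 on the opposite strand, and reads of the pair cannot be told apart where strand was not used. Mmp23 went from 921–1095 to 65.9–82.05 at day 3 (-3.33 on the log2 scale, adjusted p = 3.38e-30), and was at 819 to 1014 at day 11. Adamts7, a protease of cartilage oligomeric matrix protein, followed the same order of days, with log2 differences of -2.01, -1.47 and 0.23 at days 3, 7 and 11.

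Other members rose with induction. Adamts1 rose from 9967, 10550.1, 10204 and 11462 normalized reads at day 0 to 48789.6, 53820.5, 51918 and 54269.5 at day 3 (log2 difference 2.24, SE 0.044, adjusted p = 2.07e-29) and was back near its first level, at 10335 to 11789, by day 11. Adamts15, of the same enzyme group, rose from 243–291 to 3318–3679 (log2 difference 3.54, SE 0.049, adjusted p = 2.34e-35) and held at day 7. Adam8, a membrane protease best known from leukocytes, rose from 183–249 to 1705–1953 (log2 difference 2.82, SE 0.068, adjusted p = 3.83e-27). In each of the 3, the day 3 libraries all lay above the day 0 libraries.

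Timp4, the TIMP found in fat and heart, rose at day 3 and further at day 7. The control libraries held 19.4, 15.2, 8.45 and 8.29 normalized reads at day 0, 45.2, 52.9, 49.2 and 69.1 at day 3, 522, 449, 444 and 461 at day 7 and 106, 73.8, 96.9 and 114 at day 11. The day 3 libraries lay above the day 0 libraries (log2 difference 1.24, SE 0.13, adjusted p = 9.06e-11) and the day 7 libraries above all others (log2 difference 3.92, SE 0.13, adjusted p = 3.37e-24). Mmp11, a stromelysin that is activated inside the cell, was not called at days 3 and 7 (after rescaling to equal totals it was lower at day 3, adjusted p = 0.00514). It went from 1412–1535 normalized reads at day 7 to 3994–4430.1 at day 11, where it was above day 0 (log2 difference 1.47, SE 0.046, adjusted p = 2.76e-24). Timp2 fell to 42.6% of its day 0 mean at day 3 (log2 difference -1.19, SE 0.034, adjusted p = 5.17e-26) and Mmp14 to 37.7% (-1.37 on the log2 scale, adjusted p = 2.32e-26). Mmp2 was highest at day 7, at 174% of its day 0 mean (0.77, adjusted p = 4.71e-17).

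**Figure D1:**
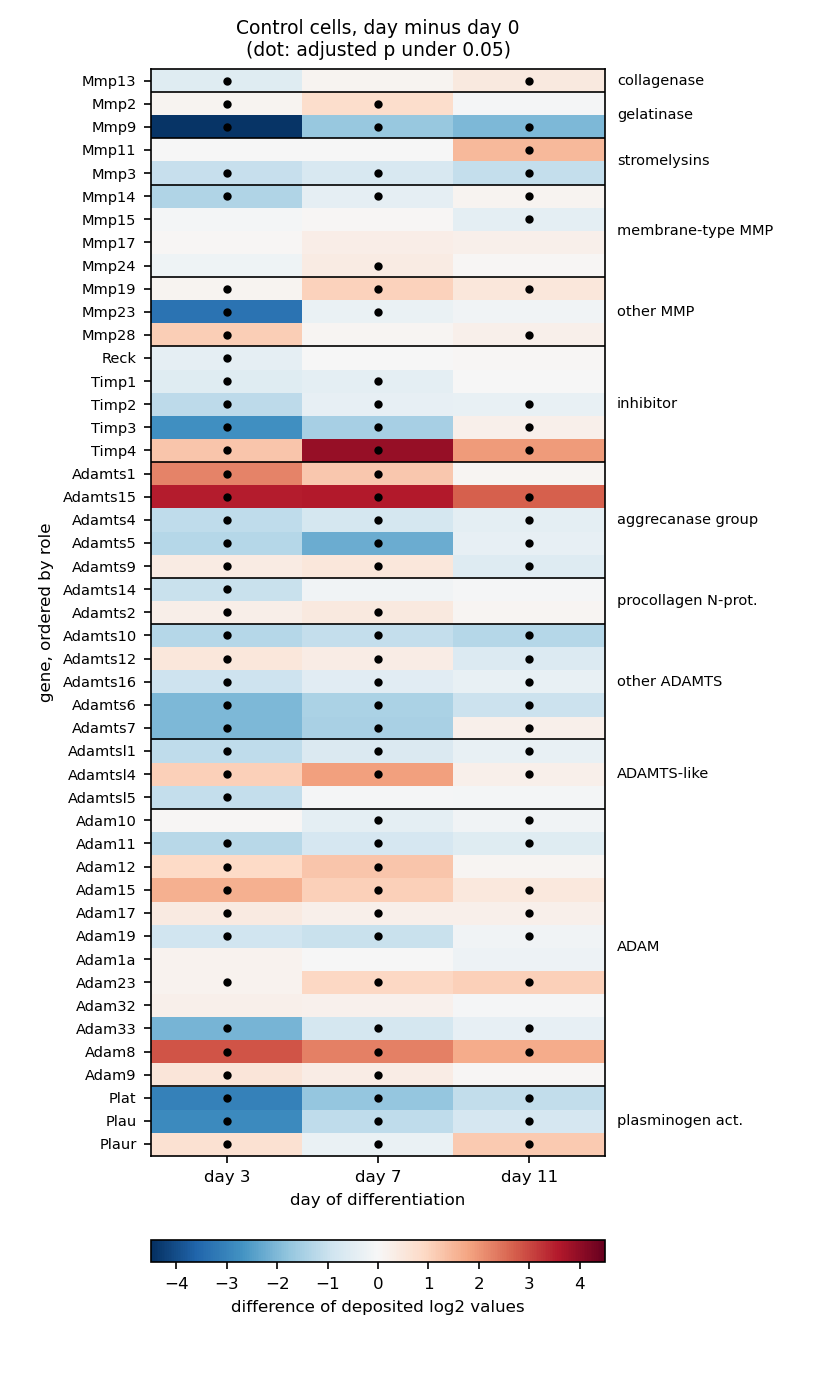
Log2 difference of control cells at days 3, 7 and 11 from day 0, for the 47 tested genes grouped by role, with 4 libraries a day. Blue and red give the direction, a dot marks an adjusted p under 0.05, and the strongest cells are the fall of Mmp9 at day 3 (-4.42) and the rise of Timp4 at day 7 (3.92).

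The effect of Zbtb9 knockdown was then assessed at each day, with the 4 knockdown libraries of both hairpins against the 4 controls. At day 0, 45 members were tested and 3 were lower in knockdown cells (Plat, Adamtsl4 and Mmp23), with 3.25% of all genes called (0.817% higher and 2.44% lower). At that day limma called 0 members higher, 2 were higher at an unadjusted p under 0.05, and voom on the rebuilt reads also called 0 higher, with 2 at the unadjusted level. At day 3, 1 member was higher and 21 were lower of 45 tested, with 26.7% of all genes called (14.6% higher and 12.1% lower). At day 7, 2 were higher and 30 lower of 47, with 47.6% of all genes called (24.9% higher and 22.6% lower). At day 11, 4 were higher and 20 lower of 46, with 33% of all genes called (16.8% higher and 16.2% lower).

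The called members thus lay mostly on the lower side from day 3 on, while the calls over all genes were split about evenly. The median log2 difference of the members tested was -0.04, -0.21, -0.42 and -0.25 at days 0, 3, 7 and 11, against -0.01, 0.00, 0.01 and -0.01 over all genes tested. In these joint comparisons of both hairpins with control, 35 of the 47 tested members were called only as lower, 5 only as higher (Timp4, Mmp11, Mmp17, Adam15 and Adamts15), 0 in both directions, and 7 on no day (Mmp2, Mmp15, Adam9, Adam32, Adamts9, Adamts12 and Adamts16). The share of all genes called on at least 1 day is not given here, so these counts over days have no background beside them. The day 0 count rested on single libraries: 0 members were called by limma without control replicate 1, 2 or 3, with 12 or 13 at an unadjusted p under 0.05, and 1 was called without control replicate 4. With the hairpins fitted as separate groups, 22 members were called at day 0 for the mean of both hairpins, a fit that takes the spread within each hairpin only. The share of all genes called for that mean is not given here, so the 22 cannot be read as particular to the members. For each hairpin alone against control at day 0, 34.7% (shRNA 1) and 17.6% (shRNA 2) of all genes were called.

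**Figure D2:**
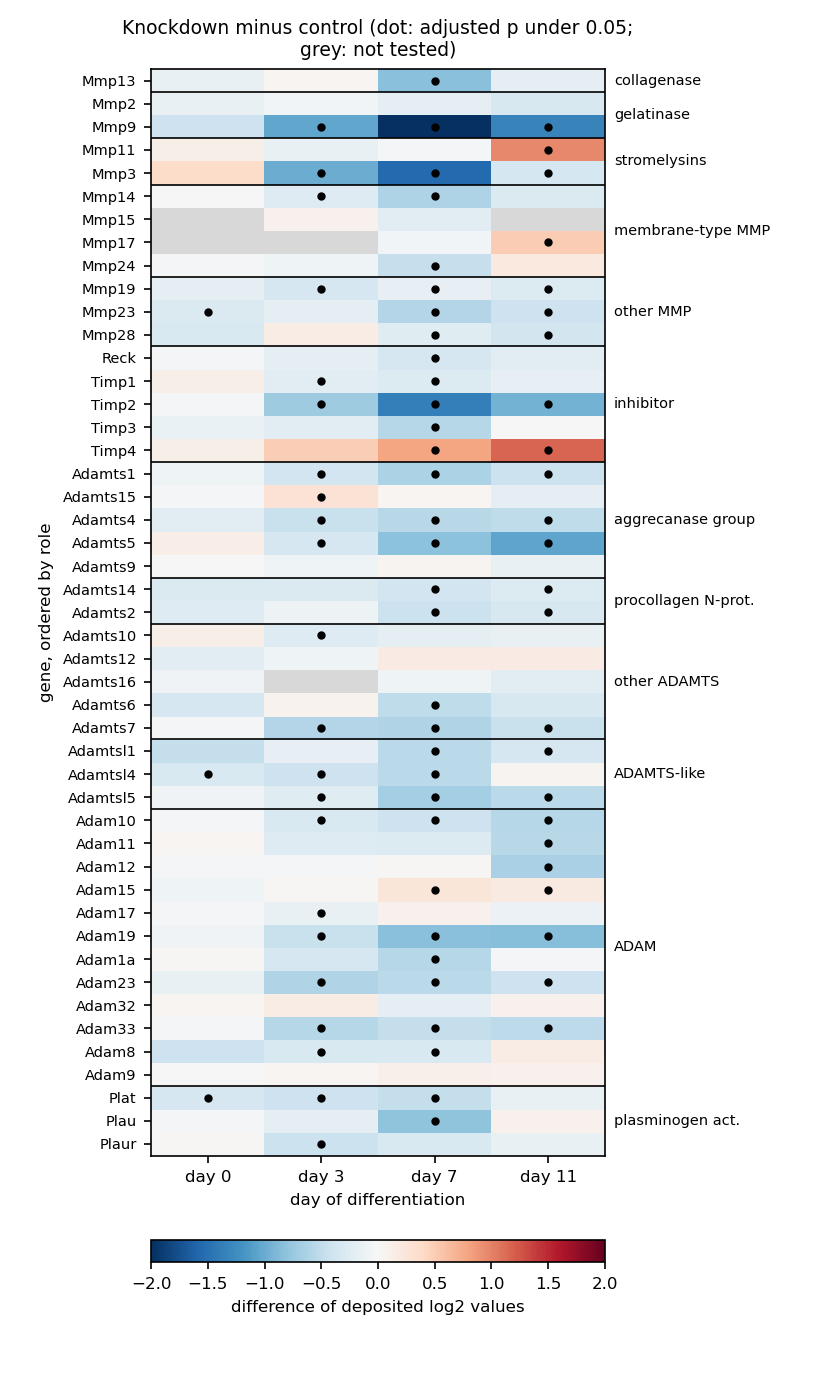
Log2 difference of knockdown from control cells at each day for the 47 tested genes, grouped by role, with 4 libraries an arm. A dot marks an adjusted p under 0.05 and grey a gene not tested at that day. From day 3 on most dots lie on cells below 0, with Mmp9 at day 7 the strongest (-1.99), and Timp4 and Mmp11 stand out above 0 at day 11.

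Whether the effect itself changed between days was tested in 1 fit of all 32 libraries, as the difference of the knockdown effect from its value at day 0. At day 3, 1 member moved up (Mmp28) and 5 moved down, with 6.57% of all genes called (3.69% up and 2.88% down). Without shRNA 1 replicate 2 of day 0 the count at day 3 was 11 in place of 6. At day 7, 1 moved up and 16 down (29.9% of all genes called, 16.8% up and 13.2% down). At day 11, 5 moved up and 9 down (23.2% of all genes called, 12.4% up and 10.8% down). After rescaling to equal totals the split at day 11 was 4 up and 12 down. The 5 that moved down at day 3 were Timp2, Mmp9, Adam10, Adamts5 and Adamts7, so for these the knockdown effect was lower at day 3 than before induction.

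Among the inhibitors, Timp2 had the largest fall and Timp4 rose. Of the 5 inhibitors, 2 fell at day 3, 4 fell and 1 rose at day 7, and 1 fell and 1 rose at day 11. Of all genes, 26.7%, 47.6% and 33% were called at these days, and the day 11 count of the inhibitors was near that share. At day 0 the Timp2 gene (chromosome 11, 118301069 to 118355740, minus strand, GRCm38) gave 36012, 35803, 37266 and 35184 normalized reads in control, 34165 and 35636 in shRNA 1 and 35904 and 35320.1 in shRNA 2 libraries, which overlapped (log2 difference -0.03, SE 0.037, adjusted p = 0.674). At day 3 the control libraries held 14818, 15447, 15620.3 and 15593, the shRNA 1 libraries 9094 and 8669.6 and the shRNA 2 libraries 9561 and 9541. The arms did not overlap, and knockdown cells stood at 59.96% of the control mean (log2 difference -0.72, SE 0.043, adjusted p = 1.2e-07).

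The gap in Timp2 was widest at day 7. The control libraries then held 27294, 27950.2, 28819 and 27739 normalized reads, the shRNA 1 libraries 10533 and 9581 and the shRNA 2 libraries 11850.1 and 10229, so that knockdown cells were at 37.7% of control (log2 difference -1.37, SE 0.059, adjusted p = 1.81e-10). The control cells had by then regained most of their day 0 level and the knockdown cells had not. At day 11 the values were 30408, 28486, 27293 and 28327 in control, 13435 and 10714 in shRNA 1 and 19242 and 16534 in shRNA 2 libraries (log2 difference -0.94, SE 0.15, adjusted p = 0.00134). The arms were still apart, and the shRNA 2 libraries lay above the shRNA 1 libraries (log2 difference 0.55, SE 0.095, adjusted p = 0.000819). The knockdown effect at day 7 differed from that at day 0 by -1.34 on the log2 scale (adjusted p = 2.3e-09).

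Timp4 (chromosome 6, 115241892 to 115252205, minus strand) was the only inhibitor called higher in the joint comparisons. At day 7 the control libraries held 522, 449, 444 and 461 normalized reads, the shRNA 1 libraries 1341 and 697 and the shRNA 2 libraries 744 and 757. Every knockdown library exceeded every control, with 1 shRNA 1 library far above the rest (log2 difference 0.79, SE 0.17, adjusted p = 0.00349). At day 11 the control libraries held 106, 73.8, 96.9 and 114, the shRNA 1 libraries 322 and 168 and the shRNA 2 libraries 290.2 and 225, again without overlap (log2 difference 1.16, SE 0.18, adjusted p = 0.000619). At day 3 the ranges overlapped, 45.2 to 69.1 in control and 45.02 to 128 in knockdown libraries (log2 difference 0.49, adjusted p = 0.132), and the hairpins differed, with shRNA 1 higher in this fit (-0.79 for shRNA 2 minus shRNA 1, adjusted p = 0.00191, which missed the threshold without shRNA 1 replicate 1 or shRNA 2 replicate 2). The change of the effect from day 0 to day 11 (1.05, adjusted p = 0.00872) missed the threshold on log2 of the rebuilt reads plus 1 (adjusted p = 0.0616) and with voom (0.377).

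Timp3 was split by hairpin before induction. At day 0 it was at 3301, 3254, 3161 and 3277 normalized reads in control, 3851 and 3909 in shRNA 1 and 2276 and 2228 in shRNA 2 libraries. The 3 groups did not overlap, with shRNA 1 above and shRNA 2 below the control (log2 difference -0.76, SE 0.045, adjusted p = 6.17e-14 for shRNA 2 minus shRNA 1). At day 7 both hairpins were below control, with 1061, 1183, 1191 and 962 in control, 769 and 827 in shRNA 1 and 736 and 576 in shRNA 2 libraries (log2 difference -0.57, SE 0.099, adjusted p = 0.000308). At day 11 the log2 difference was 0.00 (adjusted p = 0.988).

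Timp1, a soluble inhibitor, and Reck, a membrane-anchored one, changed less. Timp1 was at 1344 to 1487 normalized reads in control and 1063 to 1238 in knockdown libraries at day 7 (log2 difference -0.27, SE 0.060, adjusted p = 0.0016). Its day 3 difference (-0.21, adjusted p = 0.0298) missed the threshold when any of 5 libraries was left out. At day 0 Timp1 was higher with shRNA 1 (2440.4 and 2432) than in the controls (1911 to 2024) and in shRNA 2 (1892 and 1889). Reck fell at day 7, from 1115–1168 in control to 786 and 819 in shRNA 1 and 982 and 1019 in shRNA 2 libraries (log2 difference -0.34, SE 0.076, adjusted p = 0.00184).

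**Figure D3:**
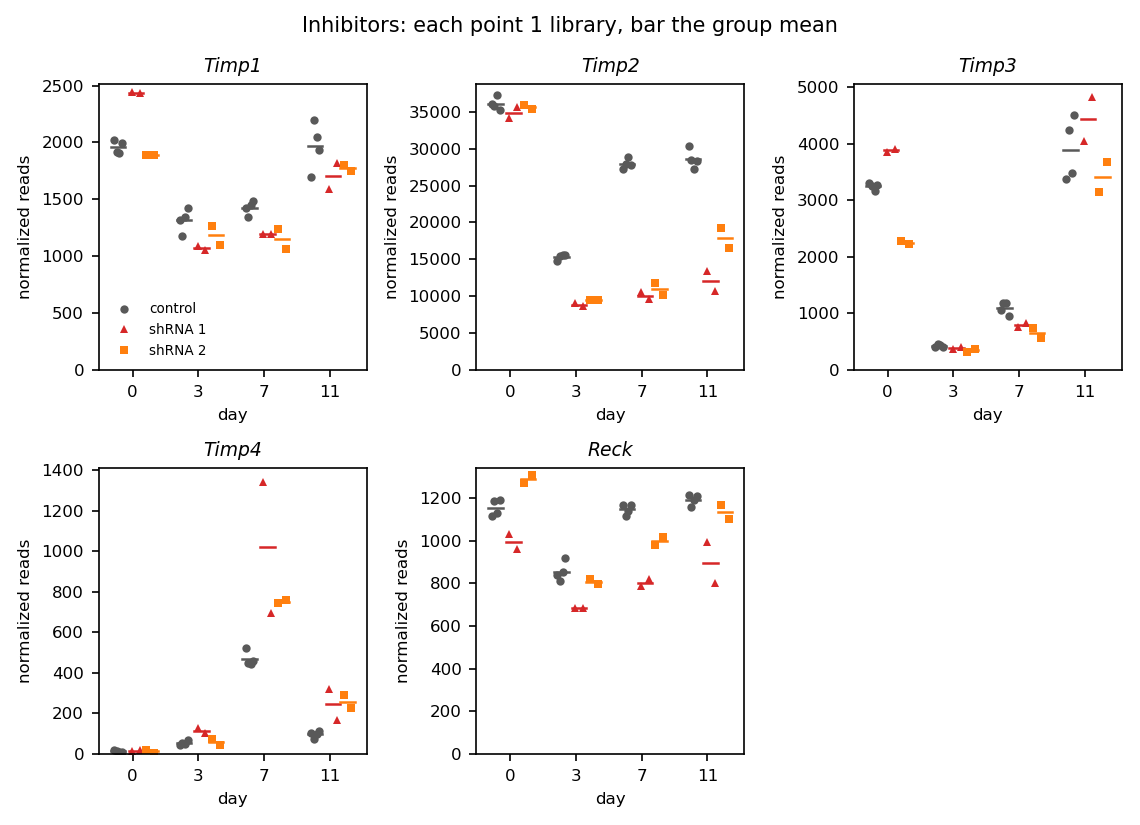
Normalized reads of Timp1, Timp2, Timp3, Timp4 and Reck in each of the 32 libraries by day, on linear axes, for control, shRNA 1 and shRNA 2 cells, with bars at group means. Timp2 separates the arms from day 3 on and reaches 37.7% of control at day 7, while Timp4 lies above control at days 7 and 11.

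The gelatinases, which cut denatured collagen and type IV collagen, differed from each other. Mmp9 (chromosome 2, 164940780 to 164955850, plus strand) had the largest fall of any member. At day 3 the control libraries held 197, 216, 176 and 182 normalized reads, the shRNA 1 libraries 91.99 and 68.8 and the shRNA 2 libraries 69.95 and 88.9, without overlap (log2 difference -1.04, SE 0.11, adjusted p = 1.38e-05). At day 7 control libraries held 1497, 1440.2, 1435 and 1450.3, shRNA 1 libraries 382 and 275 and shRNA 2 libraries 407 and 305. Knockdown cells were at 23.5% of control (log2 difference -1.99, SE 0.097, adjusted p = 8.67e-10), and both hairpins lay together.

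At day 11 Mmp9 was at 1336, 1151, 968 and 1154 normalized reads in control, 494 and 374 in shRNA 1 and 453 and 418 in shRNA 2 libraries (log2 difference -1.33, SE 0.10, adjusted p = 3.42e-06). The lowest control was still above the highest knockdown library. Before induction the gap was smaller, with 4861, 5146, 4978 and 4753 in control, 4246 and 4309 in shRNA 1 and 3135 and 3134 in shRNA 2 libraries. The arms did not overlap at day 0 either, but the hairpins differed (-0.43, adjusted p = 4.57e-09) and the joint comparison missed the threshold (log2 difference -0.41, SE 0.10, adjusted p = 0.068). It passed in the fit of all 32 libraries (0.0271) and with voom (0.0451). Against day 0, the knockdown effect moved by -0.63, -1.58 and -0.92 at days 3, 7 and 11 (adjusted p = 0.0119, 3.26e-09 and 4.96e-05, and 0.0591 for day 3 with voom).

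Mmp2 (chromosome 8, 92827291 to 92853420, plus strand), the most abundant member, was not called at any day in the joint comparison (adjusted p = 0.27, 0.39, 0.126 and 0.496). The hairpins moved apart instead. At day 11 the control libraries held 46014, 41639.6, 37594 and 42218 normalized reads, the shRNA 1 libraries 25219 and 18999 and the shRNA 2 libraries 54529 and 46515. The shRNA 1 libraries were below every control (log2 difference -0.90, SE 0.11, adjusted p = 2.61e-05) and the shRNA 2 libraries above every control, without passing the test (log2 difference 0.26, SE 0.11, adjusted p = 0.0779). The difference between hairpins was 1.17 (SE 0.13, adjusted p = 6.42e-05), and it was also found at day 0 (0.29, adjusted p = 4e-08) and day 7 (0.39, adjusted p = 7.28e-05).

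Of the membrane-type MMPs, 1 of 3 tested fell at day 3, 2 of 4 fell at day 7 and 1 of 3 rose at day 11. No other gene of this group was called at these days. The counts were near the background of calls in either direction, with 26.7%, 47.6% and 33% of all genes called at the 3 days. By direction, 12.1% and 22.6% of all genes were lower at days 3 and 7, and 16.8% were higher at day 11. Mmp14 (chromosome 14, 54431612 to 54445364, plus strand) was at 21422, 23379, 24854 and 23180.4 normalized reads in control, 14204 and 12320.0 in shRNA 1 and 17352 and 16537 in shRNA 2 libraries at day 7. All knockdown libraries were lower (log2 difference -0.61, SE 0.091, adjusted p = 0.00013). At day 11 it was at 35214, 33902, 31662 and 34276 in control, 24273 and 19496 in shRNA 1 and 35276 and 34038 in shRNA 2 libraries. The shRNA 1 libraries lay below every control and the shRNA 2 libraries at the level of the controls, and the joint comparison was not called (log2 difference -0.29, SE 0.17, adjusted p = 0.229), and the hairpins differed (0.65, adjusted p = 7.06e-05). At day 3 Mmp14 was lower (-0.26, adjusted p = 0.00286), with an adjusted p of 0.112 in the fit of all 32 libraries. The gene that rose at day 11 was Mmp17, which is scarce (4.88 to 14.9 in control and 14.9 to 48.8 in knockdown libraries, log2 difference 0.51, SE 0.16, adjusted p = 0.0332).

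Mmp11 and Mmp3, both stromelysins, went opposite ways. Mmp11 (chromosome 10, 75923222 to 75936496, minus strand) rose at day 11, when the control libraries held 3994, 4333, 4414 and 4430.1 normalized reads, the shRNA 1 libraries 9413 and 9581 and the shRNA 2 libraries 6922 and 8697. Every knockdown library exceeded every control, at 202% of the control mean (log2 difference 0.97, SE 0.090, adjusted p = 1.75e-05). At day 0 Mmp11 was at 1451, 1531, 1452 and 1520.2 in control, 1607 and 1721 in shRNA 1 and 1549 and 1585 in shRNA 2 libraries. The knockdown libraries lay above the controls by a small margin, and the joint comparison was not called (log2 difference 0.11, SE 0.047, adjusted p = 0.213). The effect at day 11 differed from that at day 0 (log2 difference 0.85, SE 0.14, adjusted p = 3.08e-05). At day 7 the joint values overlapped, 1412 to 1535 in control and 1399.9 to 1596 in knockdown libraries, and at day 3 the shRNA 2 libraries (1080.2 and 1094) were below the controls (1376 to 1619) while the shRNA 1 libraries (1553 and 1700.3) were not.

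Mmp3 fell at days 3 and 7. At day 3 it was at 337, 325, 302 and 359 normalized reads in control, 139 and 125 in shRNA 1 and 204 and 152 in shRNA 2 libraries (log2 difference -0.99, SE 0.12, adjusted p = 4.13e-05). At day 7 it was at 403, 462, 404 and 413 in control, 124 and 104 in shRNA 1 and 192 and 94.5 in shRNA 2 libraries, or 30.6% of control (log2 difference -1.56, SE 0.15, adjusted p = 1.96e-06). The arms did not overlap at either day. At day 11 the difference was smaller (log2 difference -0.35, SE 0.099, adjusted p = 0.0196) and missed the threshold without control replicate 1, 2 or 4.

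The other MMPs gave smaller falls. Mmp13, a collagenase, was at 174, 109, 183 and 194 normalized reads in control, 99.5 and 101 in shRNA 1 and 63.99 and 56.5 in shRNA 2 libraries at day 7 (log2 difference -0.83, SE 0.18, adjusted p = 0.00146), and it was not called at other days in the joint comparisons. Mmp23 at day 7 was at 818 to 834 in control and 489.6 to 595 in knockdown libraries (log2 difference -0.59, SE 0.071, adjusted p = 5.7e-06). Its day 0 and day 11 calls (-0.28, adjusted p = 0.0348, and -0.42, adjusted p = 0.0418) were each lost in 6 of 8 fits with a library left out. Mmp19 was at 1893 to 2088 in control and 1471 to 1697 in knockdown libraries at day 3, and it was lower at days 3, 7 and 11 by small amounts (-0.34, -0.16 and -0.27, adjusted p = 0.000489, 0.0118 and 0.0158, the last 0.0503 without control replicate 1). For Mmp19, 22.3% of exon bases overlap Tmem198b on the opposite strand. Mmp28 was lower at day 7 (-0.25, adjusted p = 0.0111) and day 11 (-0.37, adjusted p = 0.00112).

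**Figure D4:**
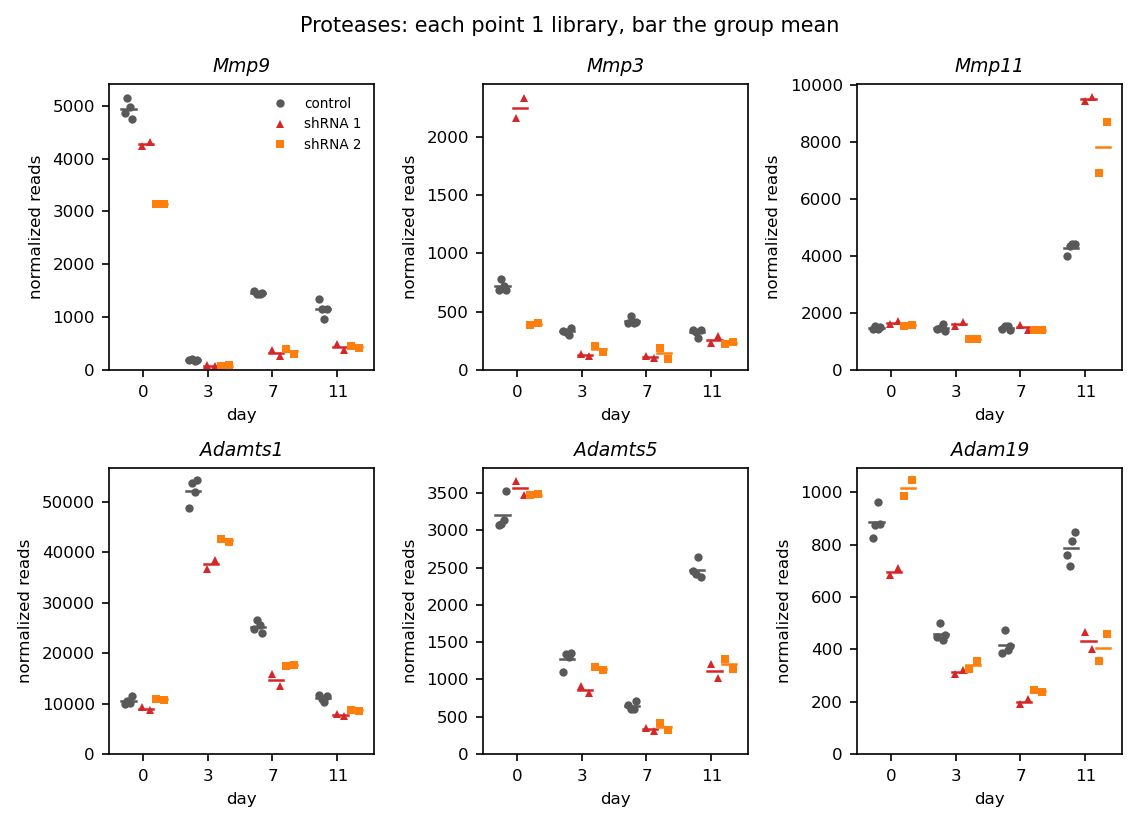
Normalized reads of Mmp9, Mmp3, Mmp11, Adamts1, Adamts5 and Adam19 in each library by day, on linear axes, for control, shRNA 1 and shRNA 2 cells, with bars at group means. Mmp9 is below control at every day, Mmp3 is split by hairpin at day 0, and Mmp11 is above control in every knockdown library at days 0 and 11, by far more at day 11.

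Among the ADAMTS enzymes that cut aggrecan and versican, 5 were tested, of which 3 fell and 1 rose at day 3, and 3 fell at each of days 7 and 11, with 26.7%, 47.6% and 33% of all genes called at these days. Adamts1 and Adamts5 are neighbours on chromosome 16 (85793827 to 85803113 and 85856173 to 85901828, both on the minus strand). Adamts1 at day 3 was at 48789.6, 53820.5, 51918 and 54269.5 normalized reads in control, 36714 and 38504 in shRNA 1 and 42597 and 42115 in shRNA 2 libraries (log2 difference -0.38, SE 0.054, adjusted p = 0.000194). At day 7 it was at 24837, 26675, 25561 and 23972 in control, 15832 and 13431 in shRNA 1 and 17536 and 17663 in shRNA 2 libraries (log2 difference -0.64, SE 0.074, adjusted p = 6.67e-06). The knockdown libraries were lower than every control at both days, and again at day 11 (10335 to 11789 against 7499 to 8784, log2 difference -0.42, SE 0.064, adjusted p = 0.000434).

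Adamts5 changed most at day 11. The control libraries held 2449, 2413, 2646 and 2370.2 normalized reads, the shRNA 1 libraries 1209 and 1015 and the shRNA 2 libraries 1273 and 1143. Knockdown cells were at 46.97% of control with no overlap (log2 difference -1.05, SE 0.069, adjusted p = 1.23e-06). At day 7 the ranges were 599 to 707 in control and 316 to 414 in knockdown libraries (log2 difference -0.81, SE 0.088, adjusted p = 2.06e-06). At day 0 the ranges were 3075 to 3523 in control and 3468 to 3661 in knockdown libraries and overlapped (log2 difference 0.13, SE 0.050, adjusted p = 0.176), and the effect at day 11 differed from it by -1.18 (adjusted p = 1.07e-08). The day 3 call (-0.33, adjusted p = 0.0434) was lost in 5 of 8 fits with a library left out.

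Adamts4, the other aggrecanase, was lower at days 3, 7 and 11 (-0.44, -0.55 and -0.51, adjusted p = 0.00354, 6.3e-05 and 0.000101). Adamts15 was the exception of the group at day 3, with 3341, 3679, 3318 and 3673 normalized reads in control, 4094 and 4123 in shRNA 1 and 4277 and 4729 in shRNA 2 libraries. All knockdown libraries were higher (log2 difference 0.29, SE 0.054, adjusted p = 0.00141), and at days 7 and 11 it was not called (adjusted p = 0.629 and 0.126). Of the procollagen N-proteinases, which trim fibrillar collagen precursors, both tested genes (Adamts2 and Adamts14) were lower at days 7 and 11 (22.6% and 16.2% of all genes lower). Adamts2 was at 3696 to 3982 in control and 2525 to 3130.1 in knockdown libraries at day 7 (log2 difference -0.43, SE 0.062, adjusted p = 3.97e-05).

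Of the remaining ADAMTS genes, 2 of 4 tested fell at day 3, 2 of 5 at day 7 and 1 of 5 at day 11, where 12.1%, 22.6% and 16.2% of all genes fell. The day 11 count was thus near the background. Adamts7 was at 185 to 253 normalized reads in control and 120.4 to 169 in knockdown libraries at day 3, without overlap. It was called at all 3 days (-0.58, -0.60 and -0.45, adjusted p = 0.00216, 0.000173 and 0.000507). Adamts12 was called at none of the days in the joint comparisons, while shRNA 2 cells were above control at days 3, 7 and 11 (0.24, 0.43 and 0.36, adjusted p = 0.000254, 2.3e-06 and 0.00245) and shRNA 1 cells below it at day 3 (-0.41, adjusted p = 2.67e-08). Of the ADAMTS-like proteins, which lack the peptidase domain and bind the matrix, 2, 3 and 2 of 3 tested fell at days 3, 7 and 11, beside the same shares of all genes. Adamtsl4, tied to fibrillin microfibrils, was at 2357 to 2631 in control and 1693 to 2052 in knockdown libraries at day 3 (log2 difference -0.42, SE 0.058, adjusted p = 0.000154) and was also lower at day 7 (-0.55, adjusted p = 0.00409). Its call at day 0 (adjusted p = 0.0396) was lost in 7 of 8 fits with a library left out.

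Of the 12 ADAMs tested, 6 fell at day 3, 6 fell and 1 rose at day 7, and 6 fell and 1 rose at day 11, with 26.7%, 47.6% and 33% of all genes called. The day 7 count was not far from that share. Adam10 and Adam17 are the main sheddases of growth factor and Notch ligands and receptors. Adam10 (chromosome 9, 70678997 to 70780229, plus strand) was at 6297, 6252, 6162 and 6200.3 normalized reads in control, 4464 and 4133 in shRNA 1 and 4116 and 3803 in shRNA 2 libraries at day 11. The arms were far apart for their small spread (log2 difference -0.58, SE 0.053, adjusted p = 1.31e-05), and the same held at day 3 (6839.6 to 7490.4 against 5661 to 5989.6, -0.31, adjusted p = 0.000132) and day 7 (5009 to 5269.8 against 3484 to 4063, -0.42, adjusted p = 1.42e-05). At day 0 the log2 difference was -0.02 (adjusted p = 0.832). Adam17 was at 3273 to 3495 in control and 2919.9 to 3247 in knockdown libraries at day 3. In the joint comparisons it was called only at that day (-0.15, adjusted p = 0.0259), and that call was lost in 5 of 8 fits with a library left out.

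Adam19 and Adam12, membrane proteases of the meltrin kind, also fell. Adam19 (chromosome 11, 46055992 to 46147343, plus strand) was at 387, 474, 398 and 413 normalized reads in control, 192 and 209 in shRNA 1 and 247 and 237 in shRNA 2 libraries at day 7 (log2 difference -0.83, SE 0.094, adjusted p = 3.16e-06). By day 11 control libraries held 762, 719, 816 and 851, the shRNA 1 libraries 467 and 401 and the shRNA 2 libraries 354 and 459 (log2 difference -0.85, SE 0.090, adjusted p = 3.76e-05). No knockdown library reached the controls at these days, whereas at day 0 the shRNA 1 libraries (684 and 711) were below and the shRNA 2 libraries (988 and 1049) above the control range of 825 to 962. Adam12 showed the same split at day 0 (0.77 for shRNA 2 minus shRNA 1, adjusted p = 6.28e-08) and fell at day 11 (583 to 721 in control and 303 to 536 in knockdown libraries, log2 difference -0.64, SE 0.15, adjusted p = 0.00809).

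Adam23, a neural ADAM without peptidase activity, was lower at day 7 (log2 difference -0.54, SE 0.047, adjusted p = 1.89e-07) and day 3 (-0.61, adjusted p = 0.00786). Its day 11 call (adjusted p = 0.0298) was lost in 5 of 8 fits with a library left out. Adam33 was lower at days 3, 7 and 11 (-0.56, -0.48 and -0.52), with adjusted p values of 0.0224, 0.0143 and 0.0469 that were lost in 3, 1 (without control replicate 2) and 6 of 8 fits with a library left out. Adam8 was slightly lower at days 3 and 7 (-0.31 and -0.30, adjusted p = 0.0215 and 0.00104). At day 11 its joint difference was 0.14 (adjusted p = 0.373), shRNA 1 cells were above control (0.35, adjusted p = 0.00128), and the knockdown effect differed from that at day 0 (0.55, adjusted p = 0.00547). Adam15 was the ADAM that rose in the joint comparisons, from 8476–9299.6 in control to 10097–10687 in knockdown libraries at day 7 (log2 difference 0.24, SE 0.048, adjusted p = 0.000674) and by 0.19 at day 11 (adjusted p = 0.0153). For Adam15, 20.6% of exon bases overlap a gene on the opposite strand.

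In plasminogen activation, 1, 2 and 2 of 3 genes fell at days 0, 3 and 7, where 2.44%, 12.1% and 22.6% of all genes fell. At day 11 limma's adjusted p was 0.0735 for Plat, 0.661 for Plau and 0.583 for Plaur, so none was called. Plat at day 7 was at 788, 857, 805 and 779 normalized reads in control, 568 and 538 in shRNA 1 and 562 and 603 in shRNA 2 libraries, without overlap (log2 difference -0.48, SE 0.064, adjusted p = 1.65e-05). Its calls at day 0 (-0.34, adjusted p = 0.0257) and day 3 (-0.41, adjusted p = 0.0205) were lost in 5 and 4 of 8 fits with a library left out. Plau at day 7 was at 67.9, 67.95, 128 and 81.98 in control and 35.5 to 41.8 in knockdown libraries (log2 difference -0.81, SE 0.15, adjusted p = 0.000366), and at day 11 the arms overlapped (96.9 to 135 against 96.8 to 170.3, adjusted p = 0.661). Plaur, the urokinase receptor, was lower at day 3, at 289 to 347 in control and 201 to 247 in knockdown libraries (log2 difference -0.43, SE 0.087, adjusted p = 0.00249).

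Genes that act on these enzymes were read from 3 lists. Of 6 tested partners of plasminogen activation, 4 fell at day 3 (12.1% of all genes fell) and 1 at each of days 7 and 11 (22.6% and 16.2%). Serpine2, an inhibitor of the plasminogen activators, fell at days 3, 7 and 11 (-0.50, -0.82 and -1.11, adjusted p = 0.00224, 1.39e-07 and 1.39e-06). Of 9 tested regulators of activation and shedding, 1 fell at day 0, 4 fell at day 3, and 2 rose and 3 fell at each of days 7 and 11. Of all genes, 3.25%, 26.7%, 47.6% and 33% were called at these days, and the share called in this list was near that at day 7. Furin, which cleaves the propeptide of many of these enzymes, was lower at days 3, 7 and 11 (-0.27, -0.26 and -0.26, adjusted p = 0.00212, 0.00213 and 0.00394), and Bsg, an inducer of MMPs, was higher at days 7 and 11 (0.52 and 0.90, adjusted p = 2.54e-06 and 3.8e-05). Of other matrix peptidases and their helpers, 4, 5 and 3 of 10 tested fell at days 3, 7 and 11, and 1 and 2 rose at days 7 and 11, beside the same shares of all genes. Bmp1, the procollagen C-proteinase, fell at all 3 days (-0.38, -0.57 and -0.51, adjusted p = 0.0175, 6.02e-07 and 2.97e-05).

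Each hairpin was also set against the same 4 controls. With shRNA 1, 5 members were higher and 21 lower at day 0, with 34.7% of all genes called (15.8% higher and 18.9% lower). The counts were 3 higher and 26 lower at day 3 (39.4% of all genes called, 20.6% higher and 18.7% lower), 3 and 33 at day 7 (52%, with 27.7% and 24.3%), and 6 and 27 at day 11 (43.6%, with 21.4% and 22.2%). With shRNA 2, 5 members were higher and 12 lower at day 0, with 17.6% of all genes called (7.38% higher and 10.2% lower). At day 3 they were 4 higher and 17 lower (31.4% of all genes called, 16.8% higher and 14.5% lower), at day 7 5 and 28 (46%, with 24% and 22%), and at day 11 5 and 15 (36.9%, with 17.4% and 19.4%).

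The hairpins were then compared with each other, because a joint comparison can miss members that they move in opposite directions. Between shRNA 2 and shRNA 1, with 2 libraries each, 16 members were higher and 7 lower at day 0, with 35% of all genes called (18.6% higher and 16.4% lower). At day 3, 13 were higher and 3 lower, with 19.6% of all genes called (10.6% and 8.94%). At day 7, 11 were higher and 2 lower, with 16.4% called (7.52% and 8.9%), and at day 11, 13 were higher and 4 lower, with 22% called (11.6% and 10.4%). After rescaling to equal totals the split at day 7 was 13 and 0. The counts moved when single libraries were left out: 9 and 10 members were called at day 3 without shRNA 1 replicate 2 and without shRNA 2 replicate 2, 8 and 6 at day 7 without shRNA 1 replicate 1 and 2, and 8 and 9 at day 11 without shRNA 1 replicate 2 and without shRNA 2 replicate 1. Such a fit leaves 1 library for a hairpin, which is then taken to vary like the other groups. Adamts12, a protease of cartilage oligomeric matrix protein, was at 1631, 1666, 1611 and 1755 normalized reads in control, 1007 and 1005 in shRNA 1 and 2053 and 2026 in shRNA 2 libraries at day 0. The controls lay between the hairpins (log2 difference 0.97, SE 0.055, adjusted p = 2.59e-14).

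Of the members tested, Mmp3 had the largest log2 difference between hairpins, on a scale that shrinks scarce genes. At day 0 the control libraries held 689.5, 782, 723 and 689.6 normalized reads, the shRNA 1 libraries 2161 and 2336 and the shRNA 2 libraries 385 and 405. The shRNA 1 cells were above (log2 difference 1.54, SE 0.064, adjusted p = 1.15e-17) and the shRNA 2 cells below the controls (log2 difference -0.80, SE 0.064, adjusted p = 1.43e-10), a difference of -2.34 (SE 0.074, adjusted p = 2.66e-20). Both hairpins were below the controls at days 3 and 7, and the knockdown effect at day 7 differed from that at day 0 (-1.93, adjusted p = 0.00497). Mmp13 had the same order at day 0, with 136, 138, 144 and 174 in control, 198 and 181 in shRNA 1 and 75.5 and 103 in shRNA 2 libraries (log2 difference -0.89, SE 0.14, adjusted p = 9.64e-06).

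Mmp3 and Mmp13 lie in a cluster of 8 MMP genes on chromosome 9, from 7272514 to 7581885, a span of 309.4 kilobases that also holds Mmp12, Mmp1b, Mmp1a, Mmp10, Mmp8 and Mmp27. The other 6 were too scarce to be tested, and their values were looked at after the pattern of Mmp3 had been seen. At day 0 Mmp1a, a collagenase, had 43.5 and 45.1 normalized reads in shRNA 1, 1.76 and 1.85 in shRNA 2 and 6.74, 1.01, 11.3 and 5.80 in control libraries. Mmp10, a stromelysin, had 12.9 and 30.98 in shRNA 1, 4.39 and 1.85 in shRNA 2 and 2.53, 2.02, 1.88 and 0.830 in control libraries. Mmp1b had 21.3 and 15.9 in shRNA 1, 7.03 and 12.98 in shRNA 2 and 5.05, 8.10, 7.51 and 3.32 in control libraries. The shRNA 1 libraries were the highest in all 3 genes. Mmp27 was the reverse, with 1.85 and 0.890 in shRNA 1, 3.51 and 4.64 in shRNA 2 and 5.89, 12.1, 10.3 and 7.46 in control libraries, and Mmp8 and Mmp12 stayed under 7 normalized reads in every library. Mmp1a and Mmp1b are close copies whose reads can be assigned to either, and the rebuilt reads of Mmp1a were not whole numbers in 19 libraries, so their values are uncertain.

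**Figure D5:**
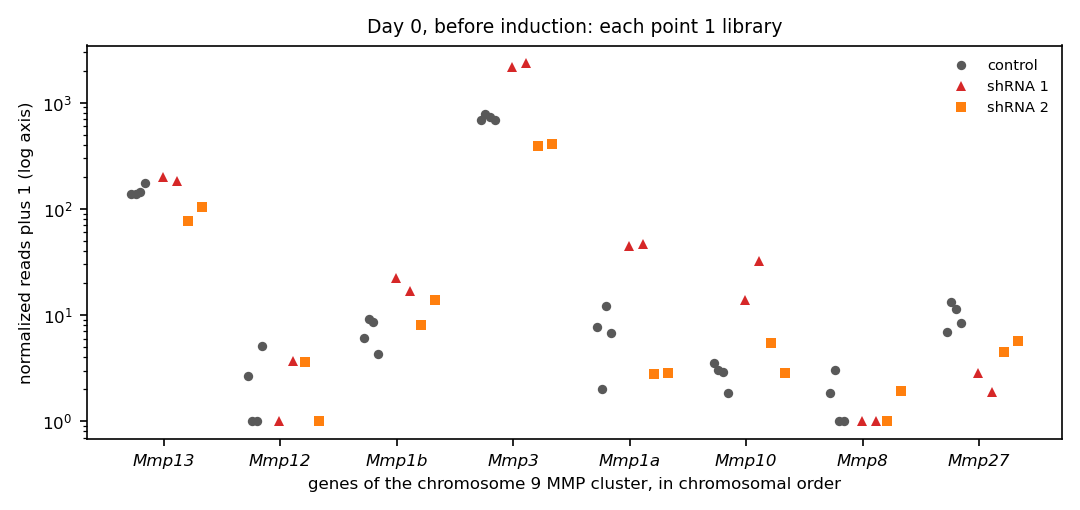
Normalized reads plus 1 at day 0, on a log axis, of the 8 MMP genes of the chromosome 9 cluster in the 4 control, 2 shRNA 1 and 2 shRNA 2 libraries. In Mmp3, Mmp13, Mmp1a, Mmp1b and Mmp10 the shRNA 1 libraries are the highest, and in Mmp27 they are the lowest.

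The promoters of the 5 cluster genes that were highest with shRNA 1 are shown, since these genes share that order at day 0. The stretches are RefSeq sequence of build GRCm38.p6, 5′ to 3′ on the strand of the gene, and capitals mark the letters TGANTCA, the core of the motif bound by AP-1 factors, which reads the same on both strands.
Mmp13, chr9:7272432-7272531, plus strand: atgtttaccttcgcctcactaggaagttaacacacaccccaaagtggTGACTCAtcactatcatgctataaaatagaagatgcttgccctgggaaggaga
Mmp1b, chr9:7388067-7388166, minus strand: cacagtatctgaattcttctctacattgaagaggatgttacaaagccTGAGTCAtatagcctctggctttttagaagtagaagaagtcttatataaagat
Mmp3, chr9:7445729-7445828, plus strand: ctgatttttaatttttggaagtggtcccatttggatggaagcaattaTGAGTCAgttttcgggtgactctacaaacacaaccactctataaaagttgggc
Mmp1a, chr9:7464021-7464120, plus strand: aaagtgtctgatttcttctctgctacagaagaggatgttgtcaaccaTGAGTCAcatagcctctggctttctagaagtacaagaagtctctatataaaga
Mmp10, chr9:7502232-7502331, plus strand: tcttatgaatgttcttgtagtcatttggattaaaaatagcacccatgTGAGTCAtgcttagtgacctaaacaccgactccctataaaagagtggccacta

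The motif starts at -35 from the annotated start in Mmp13, -93 in Mmp1b, -46 in Mmp3, -73 in Mmp1a and -63 in Mmp10. A promoter window of 250 bases before to 50 bases after the start was given for 42 of the 65 members. Of these, 8 held the motif (19%), the others being Mmp12, Adam19 and Plaur, while 970 of 13311 genes with a window did (7.29%). Mmp12 also lies in the chromosome 9 cluster, so of the 8 only Adam19 and Plaur lie outside it. The 19% thus rests mostly on neighbouring genes, and the share outside the cluster is not given here. Mmp12 holds the motif at -44 but was too scarce at day 0 to show an order, with means of 1.33 in knockdown and 1.45 in control libraries. No window was given for Mmp9, Plau and Adamts5. A match is a description of the letters, and binding was not measured.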

How the data were processed

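RNA of 32 libraries was sequenced from a TruSeq RNA kit, per the labels' protocols. The deposited table gives log2 values per gene and library, already scaled between libraries by the authors and of the form of a regularized log, which no header names. TopHat2 2.1.0, SAMtools 1.3.1, Bowtie2 2.2.6 and HTSeq 0.6.1 are named in the submitters' processing notes. The genome build, annotation and strand setting are not given in the sources used here, so reads of overlapping and near-identical genes may be shared.

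Reads were rebuilt by inverting the transform, and 99.3% of values came within 0.1 of a whole number (20% by chance). This held in every library for 59 of the 65 members, the exceptions being Adam22, Adamts1, Adamtsl1, Mmp1a, Mmp19 and Mmp2. Differences were fitted on the deposited log2 values with limma 3.58.1 (trend, robust) in R 4.3.3. P-values were adjusted by Benjamini and Hochberg over all genes tested, at a threshold of 0.05. Genes needed a linear value of 10 in 4 libraries. Each knockdown comparison used the 8 libraries of its day, the control course the 16 control libraries, the change between days all 32, and the hairpins the 8 libraries of a day as 3 groups. Voom, other filters, other scaling, a replicate term and leaving out each library were tried. The fits were tested on simulated data in which both hairpins had the same mean. That test therefore does not cover the spread between hairpins. Tables were made with Python 3.11.15, NumPy 2.4.6, SciPy 1.17.1 and pandas 2.3.3.

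Gene coordinates and lengths are from GENCODE M21 (GRCm38), and promoter windows from RefSeq (GRCm38.p6). The members named with values, by library, as a range or as a log2 difference, are a fixed list of 24 and the up to 6 called members with the largest knockdown difference and up to 4 with the largest control difference per comparison, at a level of at least 50. Adam15, Adamts4, Mmp17 and Mmp28, the low genes of the chromosome 9 cluster, and the neighbour genes Serpine2, Furin, Bsg and Bmp1 were singled out after their values were seen. 1 gene of the neighbour lists is not reported here. The members, gene lists and tests were chosen with earlier results of these data known.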

Additional observations from a re-analysis of the deposited data

Results flagged for a closer look

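In groups of 4 libraries of a day and arm, 240 groups of named members were checked for a library far from the other 3, and 8 were found, where chance gives about 12. Adam12 was at 709.34 normalized reads in control replicate 2 at day 0, against 584.59 to 591.86 in the others. Adam8 was at 196.89 in shRNA 1 replicate 1 at day 0, against 150.2 to 155.79. Adamts5 was at 3522.72 in control replicate 4 at day 0, against 3074.65 to 3133.14, and at 3661.46 in shRNA 1 replicate 1, against 3467.68 to 3482.96. Adamts7 was low in control replicate 1 at day 3, at 185.14 against 241.76 to 252.8. Mmp11 was at 1596.25 in shRNA 1 replicate 1 at day 7, against 1399.86 to 1411.9. Mmp3 was at 462.47 in control replicate 2 at day 7, against 403.46 to 413.38. Timp4 was at 1340.53 in shRNA 1 replicate 1 at day 7, against 697.21 to 756.92.

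The knockdown effect differed between days by the interaction test in limma for 6 members at day 3, 17 at day 7 and 14 at day 11, each against day 0. Among the named members that moved by over 1 on the log2 scale were Mmp3 (-1.93), Mmp9 (-1.58) and Timp2 (-1.34) at day 7, and Adamts5 (-1.18) and Timp4 (1.05) at day 11. The hairpins differed for 23, 16, 13 and 17 members at days 0, 3, 7 and 11. The widest differences, as shRNA 2 minus shRNA 1 on the log2 scale, were Mmp3 at day 0 (-2.34) and Mmp2 at day 11 (1.17).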

How the results depend on the processing

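The count of members called at day 0 between knockdown and control was 3, and became 6 in 1 fit of all 32 libraries, 0 without a filter (19 at an unadjusted p under 0.05 in limma), 1 after rescaling to equal totals and 22 with the hairpins as separate groups. The shares of all genes called in these other fits are not given here, so the changes cannot be read as particular to the members. Between hairpins at day 3 the count of members called was 16, and 8 without a filter. The causes were not tested. Leaving out each library in turn gave 0 to 4, 15 to 25, 32 to 35 and 16 to 24 knockdown calls at days 0, 3, 7 and 11, 40 to 40, 37 to 40 and 32 to 34 course calls at days 3, 7 and 11, 5 to 11, 14 to 20 and 12 to 16 calls of a change between days, and 19 to 24, 9 to 15, 6 to 13 and 8 to 21 calls between hairpins, where the hairpin left with 1 library was taken to vary like the other groups. In the control course at day 3, the rescaled log2 difference was -0.0866 for Adam10 (main 0.04) and -0.0042 for Mmp2 (main 0.12), both reversed. Of 9084 alternatives for single named members, 8697 left direction and call as they were, 260 lost and 125 gained a call. Reads per library limit the scarce genes: 18 members were too low to test.

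Within a day, the correlation of deviations of same-numbered libraries ran from -0.005 to 0.215 (24 pairs, median 0.0425, 3 over 0.1). For libraries with other numbers it ran from -0.215 to 0.139 (56 pairs, median -0.0115, 1 over 0.1). The same-numbered pairs thus lay somewhat higher, and whether the replicate numbers pair the samples was not tested. Each hairpin has 2 libraries a day and the control 4, so the higher replicate numbers hold control libraries only. With a replicate block, the knockdown counts were 0, 7, 24 and 11 at days 0, 3, 7 and 11 in place of 3, 22, 32 and 24, with 8 members at an unadjusted p under 0.05 at day 0. The block gave 40, 38 and 34 in the course, 6, 14 and 13 between days, and 24, 16, 15 and 21 between hairpins.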
